A study of Mus musculus with 10 samples.

Results

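Long intergenic noncoding RNAs (lincRNAs) with measurable expression were examined in mouse liver. They were chosen by gene type and by measured level, as the autosomal genes typed lincRNA in GENCODE vM21 that reached 1 CPM (counts scaled to the library total) in at least 5 of 10 libraries. This left 93 of 2521 lincRNA genes, in tables of 41388 genes. Of the others, 555 lie on X or Y and 1873 autosomal lincRNAs stayed below the level, of which 959 had no count in any library.

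Livers came from C57B/6J mice aged 12 weeks in 3 groups. NAMPT LKO Fasting mice (5) lacked Nampt in hepatocytes and fasted for 24 h. WT Fasting mice (3) were littermates with an intact Nampt gene and the same fast, and WT Fed mice (2) had 2 h of refeeding after 22 h without food. The knockout joins an Albumin-cre transgene to a floxed Nampt allele, for an excision the study describes as specific to hepatocytes. Whether other cells of the liver kept the gene was not tested. WT mice carried the floxed allele without cre. One library of poly-A-selected RNA was made from each liver.

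LincRNAs are typically spliced, polyadenylated transcripts that lie between protein-coding genes and carry no long reading frame. Many stay in the nucleus and are low in copy number, and some work beside the gene they start next to. Others serve mainly as precursors, whose introns or exons are cut into small nucleolar RNAs (snoRNAs) or microRNAs. In liver, fasting shifts hepatocytes from glucose use to fat oxidation and gluconeogenesis, and NAMPT, the rate-limiting enzyme of NAD+ salvage, supplies the cofactor for much of that metabolism.

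Sequences are shown for the member with the lowest p between fed and fasting livers, for the microRNA inside it, and for 4 more members that differed, so that their starts can be compared. E130102H24Rik (ENSMUSG00000086782, chr4:101346531-101356735, minus strand) has 3 exon blocks and encloses Mir101a, the gene of miR-101a, which is known for targeting the mRNA of the histone methyltransferase Ezh2. The RefSeq mature sequences lie at chr4:101346957-101346977 and chr4:101346993-101347014 (minus strand, GRCm38.p6), with the seed, bases 2 to 8, in capitals.
mmu-miR-101a-3p: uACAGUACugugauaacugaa
mmu-miR-101a-5p: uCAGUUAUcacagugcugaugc

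RefSeq start windows (250 bases before to 50 after a transcription start, GRCm38.p6) were found for 60 of the 93 members. The windows searched for motifs are printed with matches to any of 8 motifs, on either strand, in capitals. The E130102H24Rik window is chr4:101356199-101356498 (minus strand). The RefSeq start it belongs to lies 487 bases inside the gene as GENCODE annotates it. Its GC content was 76.7% with 47 CpG dinucleotides, and it held GGGCGGG (GC box) from base 207 on the reverse strand and TGTTTAC (forkhead) from base 278.
E130102H24Rik: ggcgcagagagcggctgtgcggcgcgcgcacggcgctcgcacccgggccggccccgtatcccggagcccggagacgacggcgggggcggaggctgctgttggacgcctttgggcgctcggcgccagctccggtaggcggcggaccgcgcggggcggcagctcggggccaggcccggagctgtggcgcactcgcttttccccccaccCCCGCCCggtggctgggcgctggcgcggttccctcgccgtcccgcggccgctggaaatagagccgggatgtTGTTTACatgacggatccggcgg
The next 3 windows start from the same base in both annotations. The Gm10804 window is chr2:93452569-93452868 (plus strand), with 52.0% GC, 3 CpG dinucleotides and none of the 8 motifs.
Gm10804: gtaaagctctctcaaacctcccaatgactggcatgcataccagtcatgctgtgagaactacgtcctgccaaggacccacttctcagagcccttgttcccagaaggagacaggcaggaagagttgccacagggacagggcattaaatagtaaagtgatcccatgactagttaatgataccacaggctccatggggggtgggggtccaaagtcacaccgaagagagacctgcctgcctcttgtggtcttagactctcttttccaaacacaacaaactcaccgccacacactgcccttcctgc
The Lncpint window is chr6:31218425-31218724 (minus strand), with 58.7% GC and CACGTG (E-box) from base 202.
Lncpint: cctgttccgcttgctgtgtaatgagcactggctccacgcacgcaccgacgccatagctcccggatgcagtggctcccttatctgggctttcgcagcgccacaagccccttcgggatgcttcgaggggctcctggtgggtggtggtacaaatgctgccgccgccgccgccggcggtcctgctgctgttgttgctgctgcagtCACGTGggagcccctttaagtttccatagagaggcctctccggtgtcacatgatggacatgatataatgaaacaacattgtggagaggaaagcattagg
The 9030616G12Rik window is chr10:128970947-128971246 (plus strand), with 42% GC and TATAAA from base 104.
9030616G12Rik: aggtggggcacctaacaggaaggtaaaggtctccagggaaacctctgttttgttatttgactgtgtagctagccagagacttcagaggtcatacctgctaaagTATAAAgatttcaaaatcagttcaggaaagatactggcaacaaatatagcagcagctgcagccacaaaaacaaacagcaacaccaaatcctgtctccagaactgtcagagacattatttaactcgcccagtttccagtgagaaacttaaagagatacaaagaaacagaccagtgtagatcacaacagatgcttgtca
The 9030622O22Rik window nearest to the start in the annotation, 145 bases from it, is chr2:148040299-148040598 (minus strand). It has 41.7% GC, with TGTTTAC from base 107 on the reverse strand and TATAAA from base 260, also on the reverse strand.
9030622O22Rik: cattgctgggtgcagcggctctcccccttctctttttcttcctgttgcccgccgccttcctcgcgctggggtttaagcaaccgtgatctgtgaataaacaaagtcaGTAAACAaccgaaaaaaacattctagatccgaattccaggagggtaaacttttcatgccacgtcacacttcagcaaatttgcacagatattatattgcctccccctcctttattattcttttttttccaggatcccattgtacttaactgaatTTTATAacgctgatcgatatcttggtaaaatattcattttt
Of 32851 such windows, 25.6% held GGGCGGG, 13.6% TATAAA, 7.15% CACGTG and 3.65% TGTTTAC. The other motifs searched were CCGGAAG (8.86%), ATTGCAT (2%), TGACGTCA (1.79%) and the DR1 element (0.0396%). A match is only a description of the letters.

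The libraries held 30603080 to 43434139 counts. Nampt, the targeted gene, measured 78.0 and 67.8 normalized CPM in WT Fed livers, 63.0, 73.4 and 141 in WT Fasting livers, and 11.8 to 15.3 in the 5 NAMPT LKO livers. It was lower in NAMPT LKO Fasting than WT Fasting livers (log2 fold change -2.81 ± 0.22 SE, adjusted p = 0.00102). Values throughout are CPM after TMM scaling, and a gene was called at an adjusted p of at most 0.05 over 13444 genes (edgeR's quasi-likelihood test). The hepatocyte markers Alb, Apoa1, Ttr and the like summed to 70685 to 124251 CPM and pancreas markers to 3.62 to 7.17 CPM. Bile duct markers summed to 34.3 to 54.5 CPM in NAMPT LKO livers against 15.3 to 22.7 in WT Fasting and 20.2 to 22.8 in WT Fed livers. NAMPT LKO mouse 5 stood apart with 21.1% of counts on the mitochondrial genome (7.42 to 12.9% elsewhere), and WT Fasting mouse 3 had a Kupffer cell and macrophage marker sum of 480 CPM (168 to 371 elsewhere). In bulk liver, fewer cells of a type and less RNA per cell cannot be told apart.

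The members were mostly scarce. The median member had a mean of 2.60 CPM, 34 had a mean under 2 CPM and 18 reached 10 CPM. Of the 93, 65 were at or above 1 CPM in every library. Their exonic length ran from 384 to 20771 bases with a median of 2355, and the median member had 3 exon blocks and 47.3% GC. Protein-coding genes tested had a median length of 3814 bases, 10 exon blocks and 49.7% GC. They lie on every autosome, with 10 each on chromosomes 1 and 5. In 18 members the nearest protein-coding start lay within 1 kb and pointed the other way (divergent), and the median distance over all members was 17301 bp. Exons of 28 members overlapped an exon of another gene on the opposite strand and those of 11 on the same strand. How the counting used strand is not given in the sources used here, so reads of such pairs may not be separable.

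At the edge of the rule, the fifth-highest deposited CPM was 1.06 for A830052D11Rik, 1.07 for Lncpint and 1.09 for D130017N08Rik, just inside. It was 0.990 for Gm10605, 0.942 for Gm17275 and 0.901 for 1700086O06Rik, just outside. Because 8 of the 10 libraries came from fasting mice, a lincRNA could enter through those alone. That held for 7 members below 1 CPM in both WT Fed libraries (Gm10804, Lncpint, E230001N04Rik, Gm26584, 3930402G23Rik, 9330175E14Rik and B230217O12Rik), and no member entered through the NAMPT LKO libraries alone.

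A pair of ribosomal-RNA-linked loci dominated the counts. Gm42418 and Gm26917, neighbours on chromosome 17 (39846958 to 39848788 and 39845074 to 39846245, GRCm38), are loci known to collect reads of ribosomal RNA. Gm42418 measured 12131 and 8566 CPM in WT Fed livers, 11272, 10863 and 8820 in WT Fasting livers, and 4638 to 15510 in NAMPT LKO livers. Gm26917 measured 243 to 485 CPM in 9 libraries and 56.8 in NAMPT LKO mouse 5. Together they took 0.394 to 1.57% of all counts, and the other 91 members took 0.0929 to 0.118%. The stacked shares place the lowest total in NAMPT LKO mouse 5, at 0.511%. That mouse had the highest share on the other 91 members, 0.118%. With Malat1 and Neat1 left out as well, it had the lowest share, 0.0508% against 0.0542 to 0.0695% elsewhere.

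**Figure D1:**
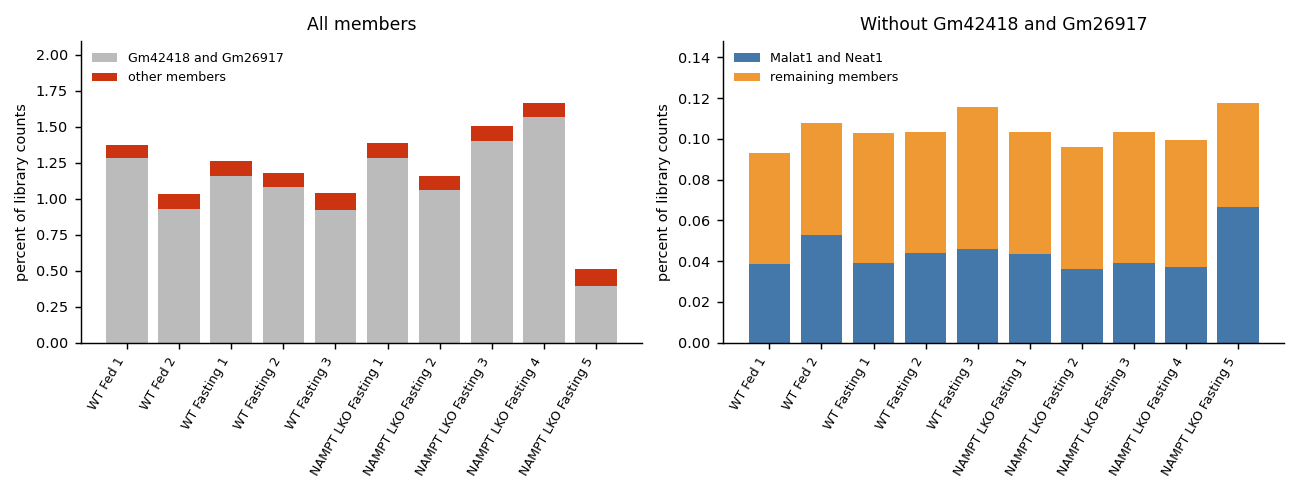
Percent of each library's counts on the members (bars, 1 per mouse; the right panel omits Gm42418 and Gm26917). Without that pair the share stays between 0.0929 and 0.118% in all 10 libraries, and NAMPT LKO mouse 5 has the tallest Malat1 and Neat1 segment.

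Among the members with known roles, the nuclear-retained pair came next in level. Malat1, a nuclear speckle RNA that is processed at its 3′ end without a poly-A tail, measured 268 and 384 CPM in WT Fed livers and 334, 405 and 371 in WT Fasting livers. NAMPT LKO livers gave 311 to 357 in mice 1 to 4 and 673 in mouse 5, so all groups overlapped apart from that mouse. Neat1, the scaffold of paraspeckles, measured 106 and 130 CPM in WT Fed livers, 57.5, 59.2 and 81.7 in WT Fasting livers, and 74.0, 50.9, 66.4, 38.5 and 123 in NAMPT LKO livers. Both fed livers were above all WT Fasting livers, but the difference was not called (log2 fold change -0.84 ± 0.38 SE, adjusted p = 0.221). limma's voomWithQualityWeights did call it, as did the fit of only the groups compared and the fit without WT Fasting mouse 3 and NAMPT LKO mouse 5.

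Per kilobase of exon, the order of levels changed. Mean TMM-scaled CPM per kilobase was 5905 for Gm42418, 349 for Gm26917, 65.2 for Gm10076, 60.2 for AW112010, 53.9 for Malat1 and 3.79 for Neat1. The Neat1 value divides by 20771 bases, the longest exonic length of any member. Whether its reads covered that whole length was not tested. Some of the abundant members carry other names in RefSeq or are typed as coding or as pseudogenes there. Gm10076, with 384 bases in 1 exon block, is typed pseudogene. 1700020I14Rik is a synonym of Oip5os1 (Cyrano), a conserved RNA known to drive the destruction of miR-7. 1810058I24Rik is listed as protein-coding with the synonym Stmp1, a small mitochondrial membrane peptide, and Tmem250-ps is typed protein-coding as well. 1810058I24Rik measured 53.4 and 40.8 CPM in WT Fed livers and 44.1 to 61.1 in the fasting livers of both genotypes.

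The first comparison sets WT Fasting livers (24 h fast) against WT Fed livers (2 h of refeeding after 22 h without food). No liver came from unfasted mice, so an effect of fasting and one of refeeding cannot be told apart. In this comparison a rise or fall is that of WT Fasting relative to WT Fed livers. Of the 93 members, 11 were called between WT Fasting and WT Fed livers (11.8%), against 7.04% of all genes tested. Of the 11, 10 were higher in WT Fasting livers, where 2.68% of all genes were called higher, and 1 was lower, where 4.36% of all genes were. Of the 10, 4 were among the 7 members that had entered below 1 CPM in both WT Fed libraries, and for these the rule already favoured a difference. Among the 65 members at 1 CPM in every library, 6 were called higher and 1 lower.

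The median log2 fold change of the members was 0.19, and 62 of 93 (66.7%) were above 0, against a median of 0.04 and 53.6% for all genes tested. Among the 65 members at 1 CPM in every library, 43 were above 0 and the median was 0.18. Protein-coding genes had a median of 0.02, antisense genes 0.28 and processed transcripts 0.23. To be tested, a gene only had to pass 1 CPM in 1 library, and most libraries came from fasting mice. Scarce genes could thus enter through fasting livers alone, as 7 members did, which favours values above 0. Markers of other liver cells differed between the same mice, although none was called. Kupffer cell and macrophage markers summed to 186 to 231 CPM in WT Fed and 241 to 480 in WT Fasting livers, and sinusoidal endothelial markers to 214 to 218 and 242 to 260, both without overlap. Their part in the members' values was not tested. The counts are small, and with 2 WT Fed mice the calls depended on both. Without WT Fed mouse 1 only 3 members were called and without WT Fed mouse 2 only 1. Without WT Fasting mouse 1 or mouse 2, 6 were called.

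**Figure D2:**
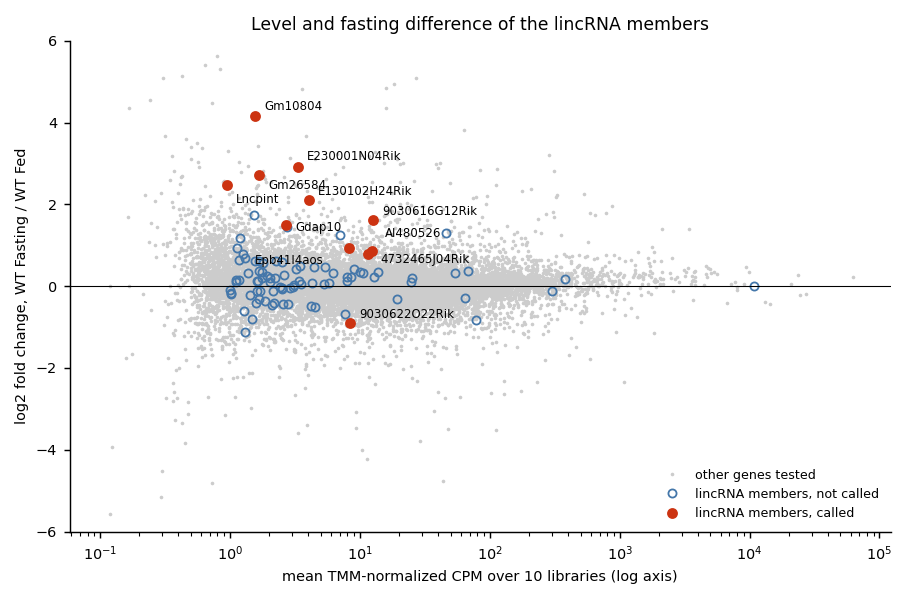
Log2 fold change of WT Fasting over WT Fed livers (vertical) against mean TMM-normalized CPM (horizontal, log axis) for all 13444 genes tested. The 11 called members (filled) lie at low to middle levels and 10 of them are above 0; Gm42418 is the rightmost member, near 0.

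E130102H24Rik had the lowest p. It measured 1.39 and 1.13 CPM in WT Fed livers, 4.38, 5.95 and 5.94 in WT Fasting livers, and 4.57, 4.87, 3.84, 3.61 and 5.08 in NAMPT LKO livers. Every fasting liver was above both fed livers. The difference was 2.10 ± 0.25 on the log2 scale in WT mice (adjusted p = 0.00127), and it stayed called under all 20 alternatives, including each library left out. The nearest protein-coding start is that of Ak4, 62542 bp away, which had a log2 fold change of 0.15 ± 0.15. The counts cover the host transcript only, since mature microRNAs are too short for these libraries.

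Gm10804 (ENSMUSG00000075025, chr2:93452819-93469871, plus strand) had the largest difference and lies antisense to Cd82, a tetraspanin gene, without exon overlap. It measured 0.134 and 0.0922 CPM in WT Fed livers, 2.13, 2.29 and 1.86 in WT Fasting livers, and 1.82, 1.54, 1.1, 3.45 and 1.27 in NAMPT LKO livers. It was all but silent in the fed livers (log2 fold change 4.16 ± 0.60, adjusted p = 0.00341). The call was lost only without WT Fed mouse 2 (adjusted p = 0.0603). Cd82 itself had a log2 fold change of 0.40 ± 0.14 and was not called (adjusted p = 0.118).

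E230001N04Rik (chr17:28523257-28525347, plus strand) is an unspliced transcript that starts 5730 bp from Fkbp5, the glucocorticoid-inducible cochaperone, in the divergent orientation. It measured 0.583 and 0.738 CPM in WT Fed livers, 2.71, 7.78 and 4.44 in WT Fasting livers, and 2.37 to 4.51 in NAMPT LKO livers. The groups of fed and fasting livers did not overlap (log2 fold change 2.90 ± 0.48, adjusted p = 0.0057). Fkbp5 was not called (adjusted p = 0.819), with 98.5 and 89.1 CPM in WT Fed livers and 69.5, 85.6 and 168 in WT Fasting livers.

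Lncpint (chr6:31093559-31218474, minus strand), a p53-induced RNA linked to Polycomb targeting, was the only one called of 4 tested genes in the p53- and growth-linked list. It measured 0.179 and 0.231 CPM in WT Fed livers and 1.75, 0.930 and 0.748 in WT Fasting livers. NAMPT LKO livers ranged only from 0.977 to 1.27. The log2 fold change was 2.46 ± 0.46 (adjusted p = 0.011), at a mean of 35.0 counts per library, the fewest of any member.

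Gm26584 (chr8:40862395-40865647, minus strand) overlaps exons of Slc7a2, the arginine transporter, on the opposite strand. It measured 0.179 and 0.553 CPM in WT Fed livers, 2.51, 2.67 and 2.11 in WT Fasting livers, and 0.883 to 2.79 in NAMPT LKO livers (log2 fold change 2.72 ± 0.60, adjusted p = 0.0213). Slc7a2 rose too, from 176 and 208 CPM to 648, 578 and 758 (1.78 ± 0.26, adjusted p = 0.00341). Slc7a2 was far more abundant, and whether its reads contribute to the Gm26584 counts was not tested.

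9030616G12Rik (chr10:128971197-128978115, plus strand), 10209 bp from the start of Mettl7b, measured 5.13 and 4.52 CPM in WT Fed livers. It measured 22.5, 12.8 and 9.15 in WT Fasting livers and 12.8 to 18.1 in NAMPT LKO livers. The log2 fold change was 1.62 ± 0.32 (adjusted p = 0.0143), and Mettl7b had one of -0.02 ± 0.16.

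Gdap10 (chr12:32821872-32826904, plus strand) lies within the Nampt gene on the same strand, 2327 bp from its start and with no exon overlap. It measured 1.1 and 1.75 CPM in WT Fed livers and 3.38, 3.16 and 5.44 in WT Fasting livers, with no overlap. It was called at the threshold (log2 fold change 1.49 ± 0.40, adjusted p = 0.0497) and held in 6 of 20 alternatives. Whether unprocessed Nampt RNA contributes to its counts was not tested.

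The other members that rose did so by less. Epb41l4aos, the host of snoRNA genes in the snoRNA host list, measured 5.36 and 3.97 CPM in WT Fed livers and 9.20, 8.68 and 9.02 in WT Fasting livers (log2 fold change 0.94 ± 0.19, adjusted p = 0.0133). AI480526, which starts 527 bp from the histone methyltransferase gene Setd1b in the divergent orientation, measured 6.90 and 10.3 against 17.1, 15.4 and 14.0 CPM (0.85 ± 0.23, adjusted p = 0.0459). Setd1b had a log2 fold change of -0.19 ± 0.17. 4732465J04Rik measured 6.05 and 7.08 against 12.2, 11.8 and 10.2 CPM (0.80 ± 0.19, adjusted p = 0.0318). In all 3 the fed and WT Fasting livers did not overlap, although AI480526 was called in only 9 of 20 alternatives.

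9030622O22Rik (chr2:147944740-148040203, minus strand) was the only called member that fell. It measured 11.9 and 16.6 CPM in WT Fed livers, 8.1, 8.0 and 6.82 in WT Fasting livers, and 4.87 to 8.06 in NAMPT LKO livers (log2 fold change -0.90 ± 0.22, adjusted p = 0.0333). Its start lies 6766 bp from that of Foxa2, a pioneer transcription factor of liver, a neighbour named after its values were seen. Foxa2 lies on the same strand and ends upstream of that start, at 148042877. Whether RNA running past the end of Foxa2 contributes to the 9030622O22Rik counts was not tested. Foxa2 measured 70.3 and 80.6 CPM in WT Fed livers and 25.9, 41.7 and 38.8 in WT Fasting livers (-1.09 ± 0.27, adjusted p = 0.035). Of the 9 called members with a tested coding neighbour, Foxa2 and Slc7a2 were the only neighbours called, where 7.04% of all genes tested were. Slc7a2 overlaps exons of its member, Gm26584, and may share reads with it.

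**Figure D3:**
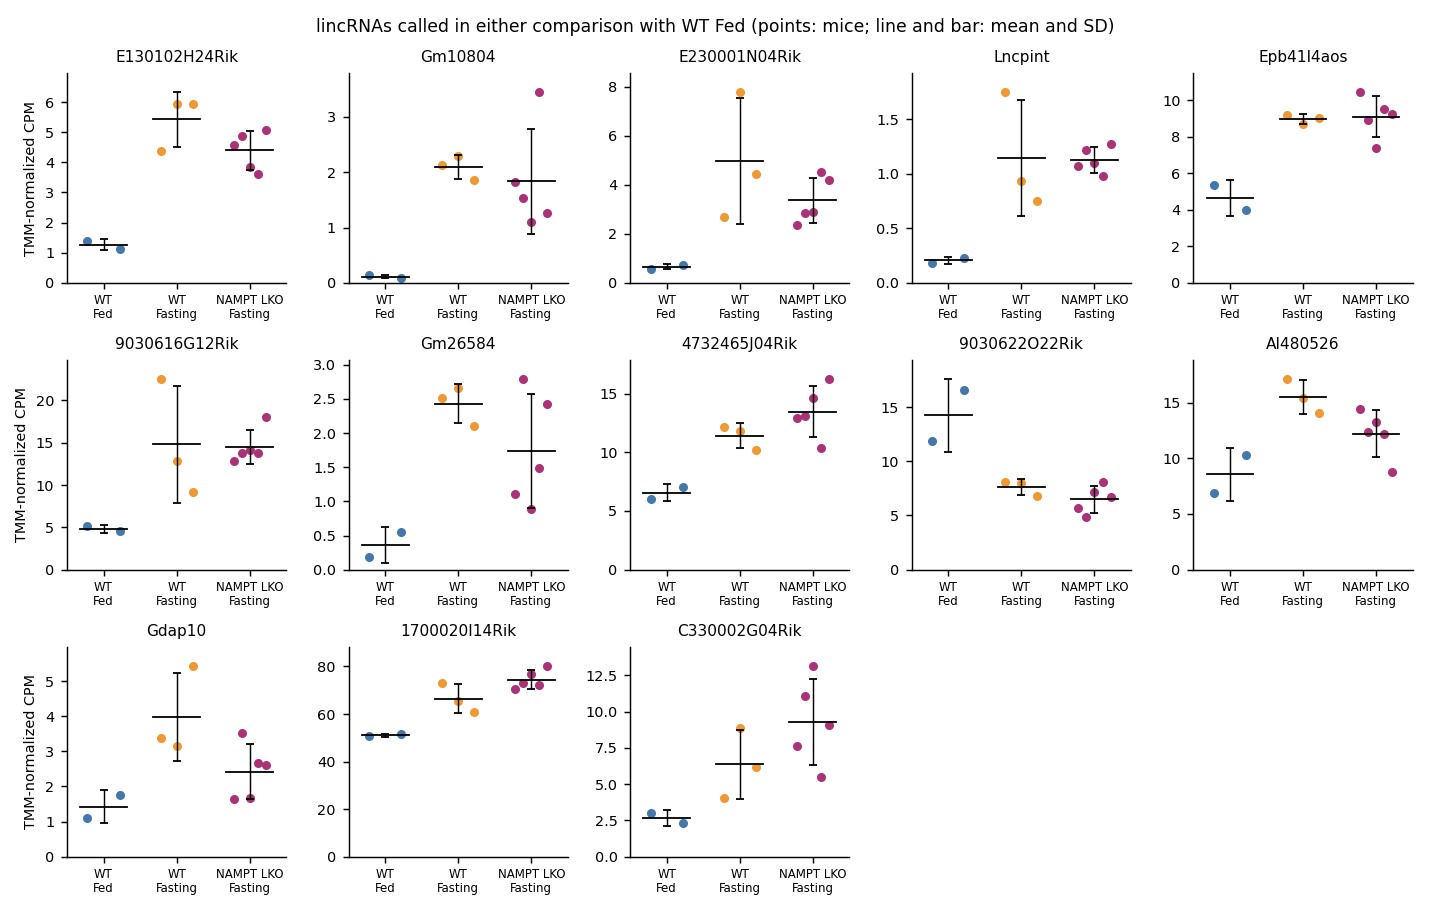
TMM-normalized CPM of the 13 members called in WT Fasting vs WT Fed or NAMPT LKO Fasting vs WT Fed (points, mice; line and bar, mean and SD; each panel has its own axis). In the 12 that rose the WT Fed mean is the lowest, and in 9030622O22Rik it is the highest.

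Across the 74 members with a tested protein-coding neighbour at any distance, Spearman's rho between the log2 fold change of member and neighbour was 0.32, and 43 pairs had the same sign. Within 5 kb it was 0.39 over 32 pairs. This is a description across genes, which are not independent and may share reads where exons overlap. The genes whose pattern over the 10 libraries was most like E130102H24Rik were Gadd45b, Cerkl and Pcbp2 (Pearson's r of log2 CPM 0.98, 0.97 and 0.97). For Gm10804 they were 4930523C07Rik, Zbtb11os1 and Tfdp2 (0.97, 0.97 and 0.96). These were the highest values over all genes tested, for members picked by lowest p in WT Fasting vs WT Fed. Genes with a similar step between fed and fasting livers reach high values, and a specific link was not tested. Gadd45b, for one, averaged 4.02 CPM in WT Fed, 16.7 in WT Fasting and 13.1 in NAMPT LKO livers.

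The remaining role lists held few expressed genes. Of 11 tested snoRNA hosts, 5 were members. Snhg6 measured 7.46 and 9.08 CPM in WT Fed and 10.2, 10.6 and 10.6 in WT Fasting livers (log2 fold change 0.34 ± 0.18), and Snhg12 and Snhg20 had values of 0.23 ± 0.16 and 0.08 ± 0.26. None of these 3 was called. Outside the members, Zfas1, another host typed processed transcript, rose from 5.15 and 6.80 to 17.3, 12.9 and 16.1 CPM (1.37, adjusted p = 0.011). Mir17hg, the precursor of the miR-17-92 cluster, measured 0.515 and 1.78 CPM in WT Fed livers and 2.59, 1.52 and 1.13 in WT Fasting livers. Meg3, the maternally expressed RNA of the Dlk1 locus, measured 0.986 and 0.945 against 1.96, 1.4 and 1.65. Neither was called. No gene was called of 4 tested in the imprinted list, where Meg3 is the only member, or of 3 tested in the chromatin list (Fendrr, Kcnq1ot1 and Airn), which are typed antisense or processed transcript and are not members.

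Genes that handle nuclear noncoding RNA were read from 3 lists. Of 24 tested genes of the nuclear RNA exosome and its adaptors, which degrade or trim such transcripts, 6 fell and 0 rose in WT Fasting against WT Fed livers, with a median log2 fold change of -0.31 against 0.04 for all genes, of which 4.36% were called lower and 2.68% higher. Exosc1, a cap subunit of the exosome, fell from 17.7 and 16.5 to 10.7, 9.80 and 9.88 CPM (-0.76, adjusted p = 0.00833). Of 20 paraspeckle genes 2 rose and 2 fell, with Fam98a falling from 34.6 and 34.4 to 19.5, 17.4 and 19.3 CPM (-0.88, adjusted p = 0.011). Of 25 nuclear speckle and SR protein genes 0 rose and 2 fell, among them the splicing factor Srsf3 (-0.74, adjusted p = 0.0329). A link between these genes and the members was not tested.

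The second comparison asks what loss of hepatocyte Nampt changed during the fast. With edgeR's quasi-likelihood fit, 0 of 93 members were called in NAMPT LKO Fasting against WT Fasting livers. Nampt was the only gene called of all tested (0.00744%). At an unadjusted p under 0.05 there were 4 members, against 6.03% of all genes. edgeR's exact test called 0 with 4 at that level, DESeq2 0 with 3, and limma's voomWithQualityWeights 0 with 5. In the quasi-likelihood fit the count at that level was 14 without WT Fasting mouse 1, and 2 without WT Fasting mouse 3 or without NAMPT LKO mouse 3. The median log2 fold change was 0.03, and 81 of 93 members lay within 0.5 of 0 in log2. The median standard error of 0.26 leaves room for differences of that size. The lowest adjusted p of any member was 0.761.

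**Figure D4:**
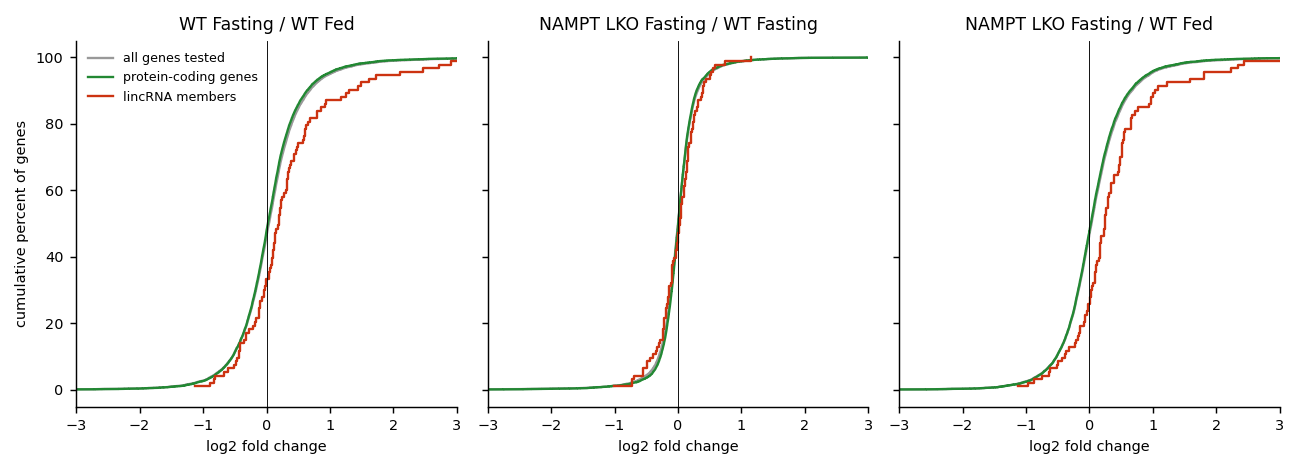
Cumulative percent of genes (vertical) by log2 fold change (horizontal, shown from -3 to 3) in the 3 comparisons, for the 93 members, protein-coding genes and all 13444 genes tested. The members' curve lies to the right of the others in both comparisons with WT Fed, which share their control mice. It lies close to them in NAMPT LKO Fasting over WT Fasting. The members include 7 that entered through fasting libraries alone, which favours the right side against WT Fed.

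Snhg18, the host of Snord123, had the lowest p of the members. It measured 0.934, 0.558 and 0.725 CPM in WT Fasting livers and 1.59, 1.12, 1.98, 1.63 and 1.95 in NAMPT LKO livers, with 0.829 and 1.43 in WT Fed livers. The fasting groups did not overlap, with a log2 fold change of 1.15 ± 0.31 (unadjusted p = 0.00352, adjusted p = 0.761). It starts 148 bp from Sema5a, a semaphorin gene, in the divergent orientation. Sema5a measured 0.910, 0.806 and 0.317 CPM in WT Fasting and 1.28 to 1.80 in NAMPT LKO livers (1.32 ± 0.35, adjusted p = 0.761). Both are near 1 CPM, and the bile duct marker sum differed between the same groups. Its part in this difference was not tested.

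Gdap10, inside the Nampt gene, measured 3.38, 3.16 and 5.44 CPM in WT Fasting livers and 1.65, 3.53, 1.67, 2.66 and 2.60 in NAMPT LKO livers. The groups overlapped, and the log2 fold change of -0.73 ± 0.30 (adjusted p = 0.827) was smaller than that of Nampt, -2.81. AW112010, an interferon-responsive transcript, measured 32.6, 28.6 and 160 CPM in WT Fasting livers and 32.2 to 39.1 in NAMPT LKO livers. Its log2 fold change of -1.01 ± 0.45 (adjusted p = 0.827) came from WT Fasting mouse 3 and was 0.26 without it. The same mouse had the highest value of 9330175E14Rik, 5.14 CPM against 0.583 to 1.67 in the others, a member named after its values were seen and antisense to the interferon-inducible gene Nlrc5. It was also the mouse with the highest macrophage and Nampt values.

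The rest were smaller. A330035P11Rik, 64 bp from Tm9sf2 and divergent, measured 3.23, 2.17 and 2.24 CPM in WT Fasting and 2.85 to 4.38 in NAMPT LKO livers (0.51 ± 0.22). 1810008I18Rik had a log2 fold change of 0.36 ± 0.18 and 6720427I07Rik, which encloses Mirlet7d, one of 0.40 ± 0.21. Gm15675 had a value of -0.44 ± 0.21 and AI480526 of -0.35 ± 0.17. All 5 had an adjusted p of at least 0.827.

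**Figure D5:**
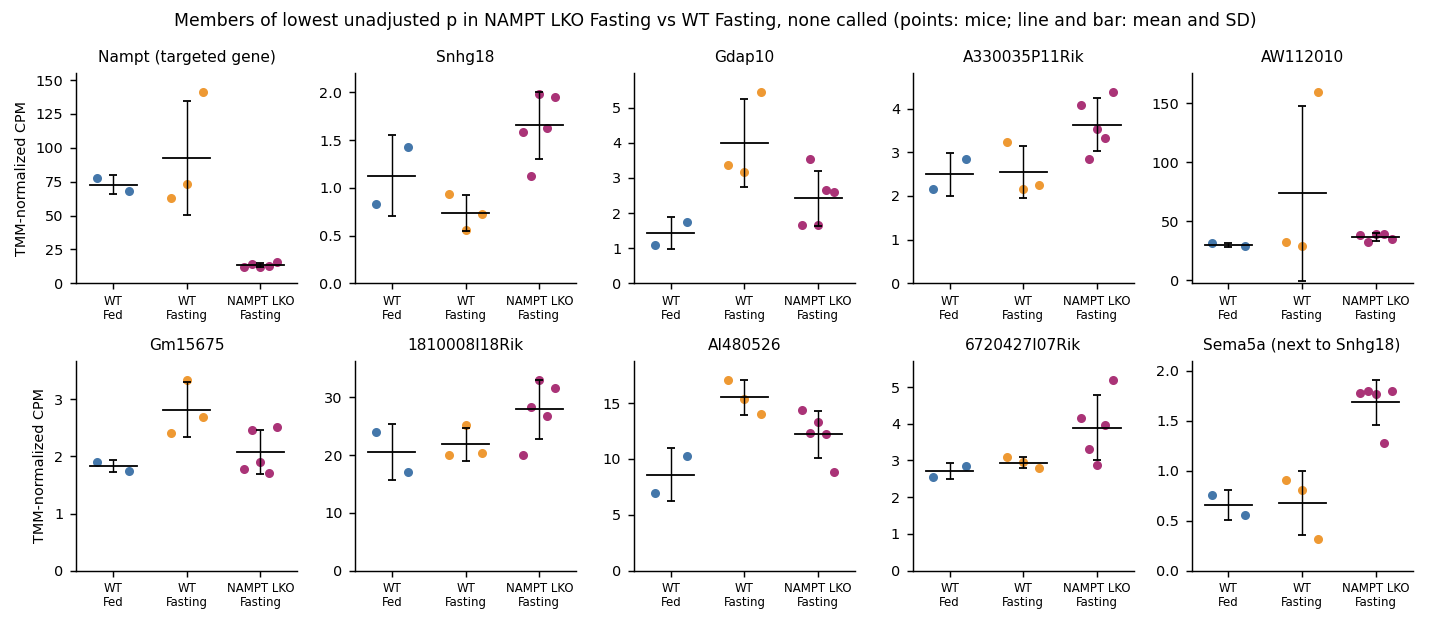
TMM-normalized CPM of Nampt, the 4 members of lowest unadjusted p in each direction between the fasting genotypes, and Sema5a (points, mice; line and bar, mean and SD; each panel has its own axis). Nampt is low in all 5 NAMPT LKO livers, Snhg18 and Sema5a are above WT Fasting in all 5, and AW112010 is high in 1 WT Fasting liver.

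The third comparison sets NAMPT LKO Fasting against WT Fed livers, which shares its control mice with the first. Of the 93 members 11 were called (11.8%), against 11.2% of all genes. Of these 10 were higher (4.65% of all genes were) and 1 lower (6.58%). The member rule favoured this direction for 4 of the 10, which were below 1 CPM in both WT Fed libraries, and among the 65 members at 1 CPM in every library 6 were called higher. The median log2 fold change was 0.24, against 0.03 for all genes. Without WT Fed mouse 1 there were 4 calls and without WT Fed mouse 2 there was 1, and 16 without NAMPT LKO mouse 5. With both WT Fasting mouse 3 and NAMPT LKO mouse 5 left out there were 19.

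The first 4 of the following rises belong to members that entered through fasting libraries alone. The largest were those of Gm10804 (log2 fold change 3.98 ± 0.58, against 4.16 in WT mice), Lncpint (2.44 ± 0.44, against 2.46), E230001N04Rik (2.35 ± 0.45, against 2.90), Gm26584 (2.24 ± 0.57, against 2.72) and C330002G04Rik. C330002G04Rik measured 3.03 and 2.28 CPM in WT Fed livers, 4.02, 8.84 and 6.21 in WT Fasting livers, and 7.62, 11.1, 13.1, 5.51 and 9.08 in NAMPT LKO livers. It was called here (1.81 ± 0.38, adjusted p = 0.0135) and not in WT mice (1.25 ± 0.40, adjusted p = 0.085), where 4 of 20 alternatives called it, among them DESeq2 and edgeR's exact test. Between the fasting groups it was 0.55 ± 0.30 (adjusted p = 0.837). 9030622O22Rik was the called member that fell, by 1.13 on the log2 scale (adjusted p = 0.0049).

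1700020I14Rik (Cyrano) had the lowest SD of log2 CPM of any member among the NAMPT LKO livers, 0.074. It measured 50.6 and 51.5 CPM in WT Fed livers, 73.2, 65.6 and 60.8 in WT Fasting livers, and 70.5, 73.0, 76.6, 72.2 and 80.2 in NAMPT LKO livers. All 8 fasting livers were above both fed livers (0.55 ± 0.11 in NAMPT LKO Fasting against WT Fed, adjusted p = 0.00967, and 0.38 ± 0.12 in WT mice, adjusted p = 0.0736). C730036E19Rik, listed in RefSeq as lncLSTR, a liver-enriched regulator of triglycerides, was named after its values were seen. It measured 9.95 and 11.4 CPM in WT Fed livers, 4.6, 8.87 and 6.75 in WT Fasting livers, and 5.06 to 9.88 in NAMPT LKO livers (-0.67 ± 0.30 in WT mice, adjusted p = 0.222).

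Among the 5 NAMPT LKO livers the members that varied most in log2 CPM were Gm26917, Meg3 and Gm42418, with SDs of 1.1, 0.69 and 0.69. Meg3 measured 1.26, 0.320, 0.525, 2.01 and 1.60 CPM in them. The median SD was 0.29 for the members and 0.24 for protein-coding genes, whose level is higher (15.8 against 2.60 CPM at the median).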

How the data were processed

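Liver poly-A RNA of 10 mice was sequenced with single 50-base reads. The authors deposited the count of uniquely aligned reads per Ensembl gene on GRCm38, CPM values (counts scaled to the library total) and RPKM values (CPM per kilobase of exon). Recomputed from the counts, both matched, so they add no other normalization. The submitters' notes name STAR 2.5.1a and featureCounts 1.4.6-p5, and the study's methods name other versions. Fasting times are those of the labels; the study's text states a 12 h fast and describes the fed controls differently. Poly-A selection under-represents RNAs without a tail.

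Counts were tested with edgeR 4.0.16 (R 4.3.3, quasi-likelihood, legacy setting, TMM) over genes above 1 CPM in at least 1 library, without 355 rRNA genes, with 1 mean per group and Benjamini-Hochberg adjustment over all 13444 genes. Alternatives were DESeq2 1.42.0, edgeR's exact test, limma 3.58.1 with voomWithQualityWeights, other scalings, filters, thresholds and member rules, a GC correction (loess span 0.5), a replicate block, and each library omitted in turn. Leaving out WT Fasting mouse 3 and NAMPT LKO mouse 5 together was added after seeing the data. Scripts were tested on simulated data. Log2 CPM for spread and likeness used a pseudocount of 0.5.

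The members and lists were chosen with earlier results of these data known. Named members were those in the role lists, the 8 of highest CPM and the 10 largest called rises and falls in WT Fasting vs WT Fed. Also named were the 4 of lowest p each way between fasting genotypes and the 5 largest called each way in NAMPT LKO Fasting vs WT Fed. The 3 of largest spread and those at the edge of the rule were named too. Exon overlap and neighbours came from GENCODE vM21, sequences and synonyms from RefSeq (GRCm38.p6), where 74 members matched by symbol. No library was a copy of another. Each library is 1 mouse, and WT Fed mice were numbered in accession order. Same-numbered NAMPT LKO and WT Fasting libraries are different mice. The correlation of their deviations from the group means was 0.078 to 0.104 (mean 0.093), against a mean of -0.051 for libraries of other numbers. Deviations within a group cancel out, so these means are tied to each other and their contrast is no separate evidence. Whether a shared number marks anything in common was not tested.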

Additional observations from a re-analysis of the deposited data

Results flagged for a closer look

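Among the 5 NAMPT LKO Fasting livers, 1 mouse lay far from the other 4 in 3 of 32 named members, and each time it was mouse 5. Chance alone would flag about 1 group in 20, or 1.6 of 32, for independent members chosen without these values. Here 3 of the 32 were named for their spread among these same livers, and all values of a library share its scaling. The 1.6 is therefore only a rough guide. Malat1 was 673 CPM in mouse 5 and 311 to 357 in the others. Tmem250-ps was 31.6 CPM in mouse 5 and 62.3 to 70.2 in the others. 9030616G12Rik was 18.1 CPM in mouse 5 and 12.8 to 14.2 in the others. Mouse 5 also had 21.1% of its counts on the mitochondrial genome and the lowest TMM factor, 0.854. The part of these in the values was not tested, and groups of 2 and 3 mice were not examined this way.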

How the results depend on the processing

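The number of members called rested mainly on the 2 WT Fed mice. With each library left out in turn, WT Fasting vs WT Fed gave 1 to 12 calls (11 with all libraries), the fasting genotypes 0 to 0, and NAMPT LKO Fasting vs WT Fed 1 to 16 (11 with all). In WT Fasting vs WT Fed, voomWithQualityWeights called 19, an unadjusted p under 0.05 took 20, a log2 fold change of at least 1 left 7, and lincRNAs at 1 CPM in all 10 libraries gave 7. In NAMPT LKO Fasting vs WT Fed, these were 24 for voomWithQualityWeights, 24 for the unadjusted p and 7 for the stricter rule, and 19 with WT Fasting mouse 3 and NAMPT LKO mouse 5 left out, a choice made after seeing the data. Between the fasting genotypes the unadjusted p took 4 (2 to 14 with 1 library left out, the highest without WT Fasting mouse 1). The other counts of called members stayed within 1.5 times. The replicate block over libraries numbered 1 to 3 called 0, as did the same libraries without the block. With 0 calls both ways, this cannot show whether same-numbered libraries, which are different mice, share anything. The mean share of counts on the members was 1.21% and 0.104% without Gm42418 and Gm26917, and 1.16 to 1.29% with 1 library left out.

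Directions turned for Mir17hg (-0.034 to 1.75 over libraries left out, lowest without WT Fed mouse 1) and Malat1 (-0.067 to 0.46, likewise) in WT Fasting vs WT Fed. AW112010 between the fasting genotypes ran from -1.39 to 0.26, and was 0.28 with both doubted mice left out. Among members called against WT Fed, 9030616G12Rik (-0.37 to 0.41), Lncpint (-0.31 to 0.43) and Epb41l4aos (-0.032 to 0.11) also crossed 0 between the fasting genotypes over 22 alternatives. Depth limits the scarce members most: the median member had a mean of 98.1 counts per library.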
